A study of Homo sapiens with 6 samples.

Results

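YAP1 and WWTR1 (which encodes TAZ), the 4 TEAD factors TEAD1 to TEAD4, and the target and feedback genes ANKRD1, LATS2, AMOTL1 and AMOTL2 were examined in 2 groups of cells labelled SKOV3, an established human ovarian carcinoma line. The 10 genes were taken by the gene symbol in the array's platform annotation, which gave 13 probes, among 18849 genes with a named probe. The comparison sets 3 arrays of OM3 cells, labelled as metastatic, against 3 arrays of ip1 cells, labelled as parental. No treatment, dose or time is given for either group, and the labels do not say how OM3 was derived. The extraction protocol speaks of tissues and the source label of cells. Separate cultures are not stated for the arrays of a group, so p-values reflect the spread among these arrays alone, which may be technical.

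The Hippo pathway is a kinase cascade that restrains growth. Its last kinases, LATS1 and LATS2, phosphorylate the coactivators YAP and TAZ, which are then held in the cytoplasm or degraded. Unphosphorylated YAP and TAZ enter the nucleus and bind TEAD factors on DNA, since neither coactivator binds DNA itself. ANKRD1, CCN1 and CCN2 are commonly read as their target genes, and LATS2 and the angiomotin-like genes AMOTL1 and AMOTL2 are targets that in turn inhibit YAP. Much of this control acts on the proteins, through phosphorylation and location, which RNA levels do not show.

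Of the 10 genes, 3 were higher in OM3 by limma's test and none was lower, nor was any lower at an unadjusted p under 0.05. On the log2 scale ANKRD1 rose by 4.74 ± 0.16 (SE, n = 3 + 3), TEAD4 by 1.19 ± 0.15 and LATS2 by 1.06 ± 0.24. YAP1, WWTR1, TEAD1, TEAD2 and TEAD3 did not pass the test, and the probes of AMOTL1 and AMOTL2 were below background on all 6 arrays. CCN2, another gene commonly used as a readout of YAP and TAZ, had a log2 fold change of -5.06 ± 0.14, opposite to that of ANKRD1.

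The signals were put on a normalised log2 scale, and testing was limited to probes that passed the background limit on 3 or more of the 6 arrays, which left 8 of the 10 genes. Levels on this scale can be compared between arrays for 1 probe, but not between probes. Each gene was tested by limma over 11729 genes, and an adjusted p under 0.05 (Benjamini-Hochberg) was taken as a change. Over all of them, 57.1% changed, 31.2% higher and 25.9% lower in OM3. The 3 of 8 tested genes that changed, or 37.5%, are to be read against the 57.1%. Of all probes tested, 51.3% changed. The median size of the log2 fold change, sign aside, was 0.17 over these 8 genes and 0.54 over all genes.

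The array profiles differed widely between the groups. Correlations over the tested genes lay between 0.984 and 0.988 within groups and between 0.797 and 0.813 across groups. Of 11 listed markers of ovarian carcinoma epithelium, all tested, 1 rose and 8 fell, and their mean log2 level was 7.05 to 7.14 on the OM3 arrays, against 10.46 to 10.56 on the ip1 arrays. KRT19, PAX8 and MSLN were below background on the 3 OM3 arrays. They passed the filter through the ip1 arrays alone, so that their direction was set by it. The mean levels above include them, so part of that gap was set by it too. Among the other 8 epithelial markers, 1 rose and 5 fell. KRT8, KRT18 and ERBB2 fell but stayed above background on the OM3 arrays, at means of 8.19, 8.39 and 9.26. KRT7 (-7.56 ± 0.28) and WT1 (-0.80 ± 0.24) fell to OM3 means of 5.51 and 5.64, each above background on 1 of 3 OM3 arrays. EPCAM, an epithelial adhesion protein gene, was the marker that rose, by 0.97 ± 0.13, to a mean of 13.02 in OM3, against 12.05 in ip1. Of 10 fibroblast markers, 7 were tested, with a mean log2 level of 8.97 to 9.08 in OM3, against 5.29 to 5.50 in ip1. Of these 7, COL3A1, DCN, THY1, LUM and COL1A2 passed the filter through the OM3 arrays alone, so that their direction was set by it. The fibroblast means include these genes, so much of the gap between the groups was set by the filter as well. POSTN, above background on 1 ip1 array, and PDGFRA, above it on all 6 arrays, rose by 6.41 ± 0.22 and 1.01 ± 0.13. COL1A1, FAP and PDGFRB were not above background on more than 1 array. Of the endothelial markers none of 3 tested changed by limma, nor at an unadjusted p under 0.05, and of the immune markers 1 of 4 fell (CD68). The mesothelial list had 2 of 4 tested genes lower and the adipocyte list 1 of 2. Of these, LRRN4 and PLIN1 passed the filter through the ip1 arrays alone, so that their direction was set by it. Without them, 1 of 3 mesothelial genes was lower, and the remaining adipocyte gene, LEP, did not pass the test. The part of these marker shifts in the results for the YAP and TEAD genes was not tested. In such bulk RNA, fewer cells of a type and less RNA per cell cannot be told apart.

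**Figure D1:**
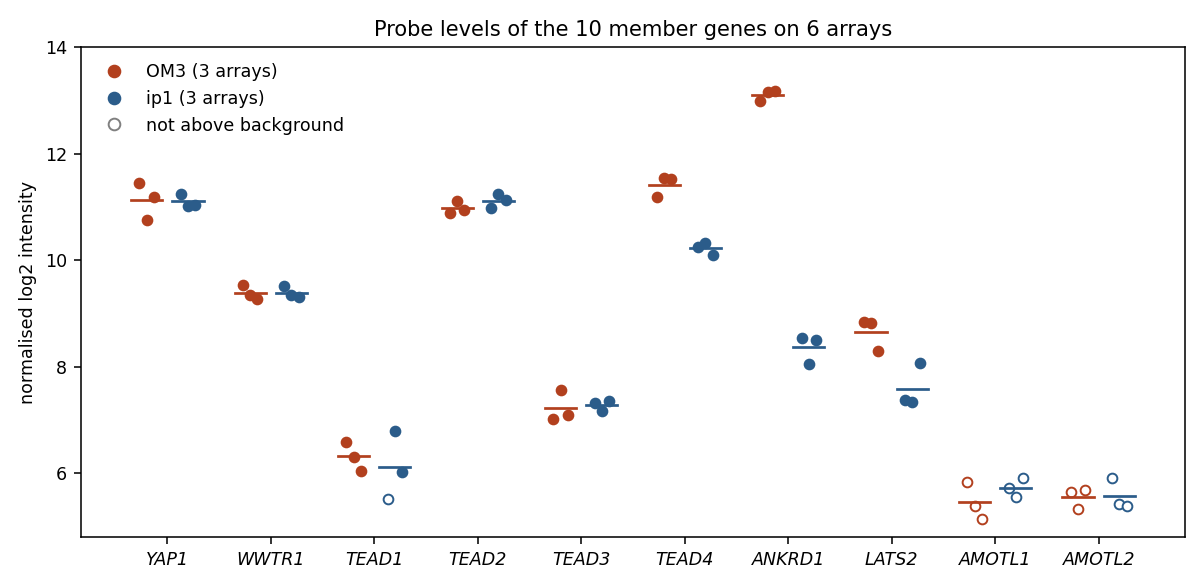
Normalised log2 intensity (vertical axis) of the probe that stands for each of the 10 genes on the 3 OM3 and 3 ip1 arrays. Points are arrays, lines are group means and open points lie below background. Only ANKRD1, TEAD4 and LATS2 have every OM3 array above every ip1 array, and heights of different genes cannot be compared.

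YAP1, the coactivator, was at 11.45, 10.76 and 11.19 on the OM3 arrays and at 11.25, 11.03 and 11.04 on the ip1 arrays. The lowest and the highest of these 6 values are both OM3 arrays, so the groups overlapped. The log2 fold change was 0.027 ± 0.19 (limma adjusted p = 0.913), with a 95% interval from -0.40 to 0.45. WWTR1, whose product TAZ is the paralog of YAP, was at 9.54, 9.35 and 9.28 in OM3 and at 9.52, 9.36 and 9.30 in ip1. Each group spanned nearly the same range. Its log2 fold change was -0.0044 ± 0.13 (adjusted p = 0.980), and the interval ran from -0.31 to 0.30. Of all genes tested, 2.75% had a smaller change than YAP1, sign aside, and 0.384% a smaller one than WWTR1. The change of YAP1 minus that of WWTR1 was 0.031 ± 0.17, with overlapping groups (exact two-sided permutation p = 1).

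The 4 TEAD genes encode the DNA-binding partners of YAP and TAZ, and in the data TEAD4 alone of them passed the test. TEAD4 was at 11.19, 11.55 and 11.53 on the OM3 arrays and at 10.25, 10.33 and 10.11 on the ip1 arrays. Every OM3 value lay above every ip1 value. The log2 fold change was 1.19 ± 0.15, with a 95% interval from 0.86 to 1.53 (limma adjusted p = 0.000167), and 90.8% of all genes had a lower one. A second TEAD4 probe was at 8.42, 8.33 and 8.38 in OM3 and at 7.38, 7.42 and 7.94 in ip1. It also separated the groups, with a log2 fold change of 0.80 ± 0.18 (limma adjusted p over all probes = 0.00503). The last of the 3 TEAD4 probes was below background on all 6 arrays.

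TEAD2 was at 10.89, 11.12 and 10.94 in OM3 and at 10.99, 11.25 and 11.13 in ip1, a log2 fold change of -0.14 ± 0.14 (adjusted p = 0.419, limma). TEAD3 was at 7.03, 7.56 and 7.10 in OM3 and at 7.32, 7.16 and 7.35 in ip1, a log2 fold change of -0.050 ± 0.17 (adjusted p = 0.820, limma). Both pairs of groups overlapped, and the 95% intervals reached from -0.45 to 0.17 for TEAD2 and from -0.43 to 0.34 for TEAD3. The brighter of 2 TEAD1 probes was near background, at 6.59, 6.31 and 6.05 in OM3 and at 5.52, 6.80 and 6.02 in ip1, where 2 of 3 arrays were above background. Its log2 fold change of 0.21 ± 0.30 did not pass (adjusted p = 0.578, limma), and the interval from -0.48 to 0.89 is the widest among the 8 genes. The other TEAD1 probe was above background on 1 array of each group.

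Whether TEAD4 differed in its change from its paralogs was asked on the difference between 2 genes on each array. Among 7 pairs of paralogs compared, the change of TEAD2 minus that of TEAD4 was -1.33 ± 0.12 and that of TEAD3 minus TEAD4 was -1.24 ± 0.18. In both the groups did not overlap, and the exact two-sided permutation p was 0.1, the smallest that 3 against 3 arrays allow (0.35 after adjustment over the pairs). TEAD1 minus TEAD4 gave -0.99 ± 0.43 (exact permutation p = 0.2), with overlapping groups. The differences among TEAD1, TEAD2 and TEAD3 lay between -0.087 and 0.34, and none separated the groups. The pair AMOTL1 and AMOTL2 was not compared, since neither probe was above background.

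ANKRD1 encodes a muscle ankyrin repeat protein of the sarcomere and nucleus, best known from heart muscle. It was at 12.99, 13.15 and 13.18 on the OM3 arrays and at 8.54, 8.06 and 8.50 on the ip1 arrays. The gap between the groups was far wider than the spread within either. As deposited intensity, the same probe read 8537, 9363 and 9485 in OM3 and 469, 329 and 419 in ip1, where the highest background limit of any array was 153. The log2 fold change of 4.74 ± 0.16, or 26.7-fold, had a 95% interval from 4.37 to 5.11 (limma adjusted p = 6.96e-08). It exceeded that of 99.65% of the genes tested.

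LATS2, the kinase that inhibits YAP and is itself a target of YAP and TEAD, was at 8.85, 8.83 and 8.29 in OM3 and at 7.38, 7.33 and 8.06 in ip1. The groups did not overlap, but the lowest OM3 array was close to the highest ip1 array. The log2 fold change was 1.06 ± 0.24, with a 95% interval from 0.53 to 1.60 (limma adjusted p = 0.00450). As a share of the 8 tested genes, 37.5% had groups that did not overlap, all higher in OM3. Over all genes tested 64.2% did, with 35.2% higher in OM3.

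AMOTL1 and AMOTL2, which bind YAP and hold it at junctions and in the cytoplasm, gave no measured level. The deposited intensities of the AMOTL1 probe were 145, 128 and 121 in OM3 and 139, 124 and 137 in ip1. Those of the AMOTL2 probe were 138.5, 127 and 137 in OM3 and 147, 119.9 and 119 in ip1. The background limits of the arrays lay between 138 and 153, each array with its own, and no reading of either probe passed the limit of its array. No fold change is given for them.

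Promoters are shown for the 2 feedback and target genes that rose, ANKRD1 and LATS2, and for CCN2, which fell, because they carry the core TEAD motif and went opposite ways. They come from RefSeq on GRCh38.p14, 250 bases before to 50 after the gene start, all on the minus strand of the chromosome: chr10:90921038-90921337 for ANKRD1, chr13:21061537-21061836 for LATS2 and chr6:131951323-131951622 for CCN2. They are written 5′ to 3′ on the gene's strand, with the motif in capitals.
ANKRD1: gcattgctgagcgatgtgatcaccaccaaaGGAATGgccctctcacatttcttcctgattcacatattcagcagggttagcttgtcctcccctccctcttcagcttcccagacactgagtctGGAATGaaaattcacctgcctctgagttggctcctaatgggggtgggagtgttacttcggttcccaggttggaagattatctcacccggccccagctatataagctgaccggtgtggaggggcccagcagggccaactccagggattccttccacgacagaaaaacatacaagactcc
LATS2: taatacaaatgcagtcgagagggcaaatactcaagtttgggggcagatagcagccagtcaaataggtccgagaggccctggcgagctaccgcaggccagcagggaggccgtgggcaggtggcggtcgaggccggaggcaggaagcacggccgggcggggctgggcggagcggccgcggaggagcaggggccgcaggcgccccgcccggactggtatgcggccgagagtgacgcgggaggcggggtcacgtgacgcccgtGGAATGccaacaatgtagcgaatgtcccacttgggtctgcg
CCN2: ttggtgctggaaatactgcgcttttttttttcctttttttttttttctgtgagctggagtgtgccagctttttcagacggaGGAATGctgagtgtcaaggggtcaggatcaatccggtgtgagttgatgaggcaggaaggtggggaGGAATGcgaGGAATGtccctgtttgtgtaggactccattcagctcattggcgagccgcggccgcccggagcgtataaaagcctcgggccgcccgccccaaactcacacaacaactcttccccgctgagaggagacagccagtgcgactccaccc

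The motif searched was GGAATG on either strand (CATTCC when read on the other strand). ANKRD1 held it at -220 and -128 from the gene start (first base of the match), LATS2 at 10 after it, and CCN2 at -169, -104 and -95. Of 35116 promoters of this length, with those on chromosome 8 left out, 14% held at least 1 match, 1.37% at least 2 and 0.128% at least 3. Of the 10 genes, 8 had a promoter in the table, 11 promoters in all. A match was also present for YAP1 at -162 and for 1 of 2 promoters of AMOTL2 at -69, so that 4 of the 11 promoters, 36.4%, held one. TEAD1 and TEAD4 were not in the table. The AP-1 motif was searched loosely as TGANTCA, with any base at N, which reads the same on both strands and does not overlap the TEAD motif. It was found in ANKRD1 at -195, with a T at N, and in none of the other members' promoters (7.71% of all promoters held it). A match in letters is a description and does not show that a factor binds there.

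**Figure D2:**
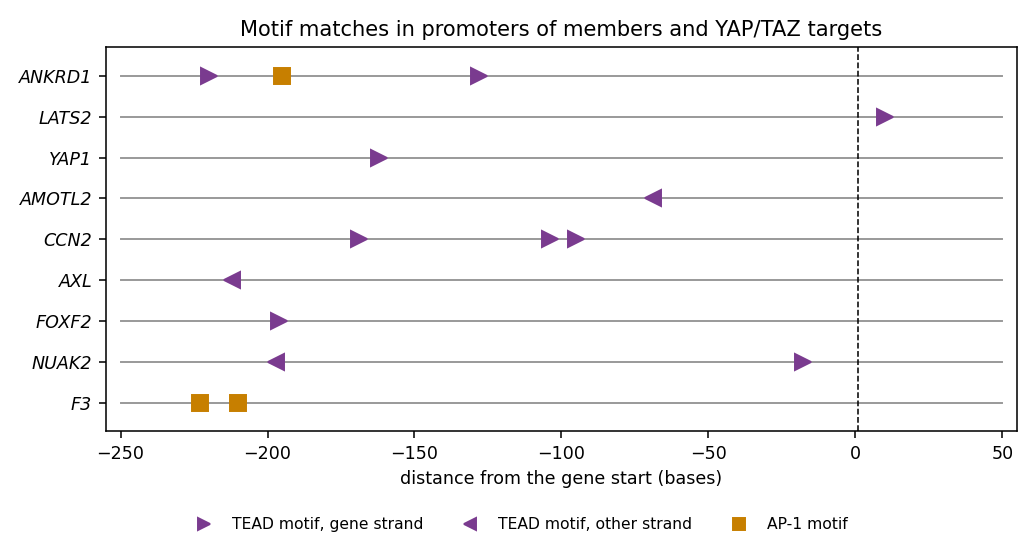
Position of TEAD and AP-1 motif matches (horizontal axis, bases from the gene start, dashed line) in the promoters of the members with a match and of the YAP and TAZ targets with a match that were lower in OM3. ANKRD1 and CCN2, which went opposite ways, hold 2 and 3 TEAD motifs, and F3 holds 2 AP-1 motifs and no TEAD motif.

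The other YAP and TAZ targets, a published signature without the genes above, mostly fell. Of 19 listed, 18 were tested, of which 13 fell (25.9% of all genes did) and 2 rose, 5 of them measured above background in 1 group only, which fixed their direction. Among the other 13, 9 fell and 1 rose. The 18, with the 5 of fixed direction included, had a median log2 fold change of -1.37, beside 0.086 for all genes. CCN2, a secreted matricellular protein, was at 6.75, 6.64 and 6.93 on the OM3 arrays and at 11.79, 11.70 and 12.01 on the ip1 arrays. The groups were far apart and all 6 arrays were above background (limma adjusted p = 2.84e-08). A second CCN2 probe gave -5.25 ± 0.13. In the authors' value table the log2 fold change of CCN2 was -4.18. CCN1, its close relative (chosen after its values were seen), was at 10.60, 10.64 and 10.69 in OM3 and at 12.14, 12.25 and 12.22 in ip1, a log2 fold change of -1.57 ± 0.12 (limma adjusted p = 8.79e-06).

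Tissue factor (F3), the starter of blood clotting, was below background on the 3 OM3 arrays and at least 208-fold lower there. Such a bound takes the brighter group's mean over the background level reached in the other group, as means of log2 values. The receptor kinase AXL was at least 94.3-fold lower and the transcription factor gene FOXF2 at least 11.2-fold lower, both also below background on the 3 OM3 arrays. Without background correction these bounds were 90.6-fold for F3, 41.4-fold for AXL and 5.43-fold for FOXF2, and in the authors' value table the fitted log2 fold changes were -6.29, -5.29 and -2.40. NT5E, the ectoenzyme that makes adenosine, had a log2 fold change of -3.64 ± 0.19, and CRIM1, which binds BMP ligands, one of -3.57 ± 0.25 (above background on 2 of 3 OM3 arrays). In the authors' value table they were -2.74 and -2.40. Of 43 genes named from the lists, 15 had a fold over 1.5 times smaller in that table or without background correction, and none changed sign. The 2 targets that rose, named after their values were seen, were RBMS3, an RNA-binding protein gene (at least 3.87-fold, or 2.23-fold without background correction, below background on the 3 ip1 arrays), and FJX1, the relative of the fly four-jointed kinase (1.24 ± 0.12). PTPN14, ASAP1 and IGFBP3 did not pass, at 0.28, 0.25 and 0.14, but a second probe did for PTPN14 (0.90 ± 0.16) and for ASAP1 (0.56 ± 0.17). Among probes above background on all 6 arrays, 6 of these targets fell and 1 rose. With median centring, or when the probes of each gene were averaged, 4 rose, and with any 1 OM3 array left out 1 did.

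**Figure D3:**
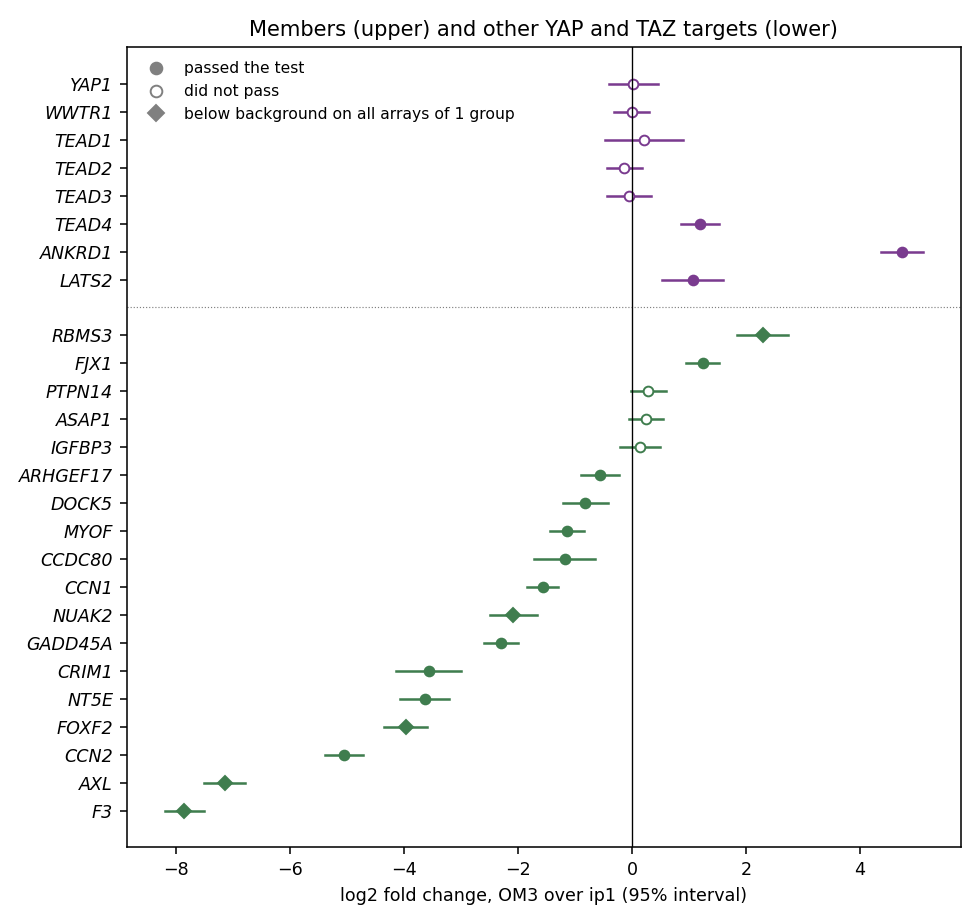
Log2 fold change, OM3 over ip1 (horizontal axis), with its 95% interval for the 8 tested members above the dotted line and 18 other YAP and TAZ targets below it. Filled symbols passed the test, and diamonds were below background on every array of 1 group, so that their plotted fold change rests on background signal. ANKRD1 lies at 4.74, while F3, AXL and CCN2 lie at -7.86, -7.15 and -5.06.

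The Hippo core kinases and their scaffolds rose in part. Of 8 tested, 4 rose and none fell by limma, nor at an unadjusted p under 0.05. Over all genes, 31.2% rose and 25.9% fell. Each step was smaller than that of ANKRD1. STK4 (MST1), which activates the LATS kinases, was at 10.90, 11.10 and 11.02 in OM3 and at 10.67, 10.24 and 10.45 in ip1, a log2 fold change of 0.55 ± 0.15 (limma adjusted p = 0.0121). The MOB adaptors of the LATS kinases, MOB1B and MOB1A, rose by 0.87 ± 0.21 (above background on 2 of 3 ip1 arrays) and 0.60 ± 0.18. In the authors' value table STK4, MOB1B and MOB1A were at 0.51, 0.39 and 0.33. LATS1, the paralog of LATS2, was below background on every ip1 array. Its OM3 level was higher by at least 1.27-fold, or 1.12-fold without background correction. LATS1 passed the filter through the OM3 arrays alone, so that its direction was set by it. Among the other 7 genes, 3 rose and none fell. STK3, SAV1, STK38 and STK38L, at 0.37, 0.12, 0.10 and -0.32, did not pass. The call of LATS1 was lost without a filter on dim probes (adjusted p = 0.0763) and without ip1 array 1 (0.0916), and that of MOB1A with cyclic loess (0.0513), without OM3 array 1 (0.0516) and without OM3 array 3 (0.0533). Without OM3 array 1 or 3, 2 genes of this list were called.

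Upstream regulators of the cascade were more often lower than higher. Of 14 tested, 6 fell and 1 rose, with a median of -0.16. That is 7 of 14 changed, beside 57.1% of all genes, of which 25.9% fell and 31.2% rose. WWC1 (KIBRA), a scaffold that brings LATS kinases to the membrane, was at 9.16, 9.29 and 8.66 in OM3 and at 11.41, 11.13 and 11.49 in ip1. Its log2 fold change was -2.31 ± 0.19 (limma adjusted p = 1.47e-05). The FERM protein gene FRMD6 had one of -2.15 ± 0.16 from its main probe and also fell by a second probe, while another, at -0.16, did not pass. MAP4K4 (-1.40 ± 0.15) and MAP4K5 (-1.28 ± 0.16), kinases that act beside MST1 and MST2, and NF2, which encodes the tumour suppressor merlin (-0.70 ± 0.15), also fell. Of the other NF2 probes 1 fell and 1, at -0.28, did not pass (limma adjusted p over all probes = 0.409). AMOT, the founder of the angiomotin family to which AMOTL1 and AMOTL2 belong, rose by 1.11 ± 0.23 (0.47 in the authors' value table) and was above background on 1 of 3 ip1 arrays. The count of higher genes was 0 with the stricter filter of all 6 arrays, and 2 without background correction, with median centring, in the authors' value table, with averaged probes, with trended and robust variance and without ip1 array 1. PTPN14, which is in this list too, did not pass, but its second probe did, at 0.90 ± 0.16.

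Genes whose products restrain the Hippo kinases moved in both directions: of 10 tested, 4 rose and 2 fell (median -0.11). Over all genes, 31.2% rose and 25.9% fell. The LIM proteins AJUBA (-1.45 ± 0.17) and WTIP (-1.10 ± 0.21), which bind LATS kinases, fell. STRN3 (0.91 ± 0.14) and MOB4 (0.56 ± 0.21), parts of the STRIPAK phosphatase complex, rose, as did its catalytic subunit PPP2CA (0.80 ± 0.15) and the salt-inducible kinase gene SIK3 (0.48 ± 0.13). A second PPP2CA probe, at 0.43 ± 0.17, did not pass (limma adjusted p over all probes = 0.0644), while a second STRN probe passed at 0.50 ± 0.17 where the probe used, at -0.11, did not. With cyclic loess the counts were 2 higher and 2 lower, without MOB4 (adjusted p = 0.151) and SIK3 (0.0715). MOB4 also missed the threshold under 6 of the other 14 alternatives, each time with a value above 0. A second MOB4 probe passed at 0.84 ± 0.16 (limma adjusted p over all probes = 0.0023), while the probe used did not pass in that fit (0.0572).

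Of 12 genes for degradation and cytoplasmic retention of YAP and TAZ, 2 rose, 2 fell and 8 did not pass. Over all genes, 31.2% rose and 25.9% fell. SFN and BTRC passed the filter through 1 group alone, which fixed their direction. Among the other 10, 1 rose and 1 fell. SFN, the epithelial 14-3-3 sigma protein that can hold phosphorylated YAP in the cytoplasm, was below background on the 3 OM3 arrays and at least 71.2-fold lower (31.4-fold without background correction). BTRC and FBXW11, the paired beta-TrCP ubiquitin ligase adaptors that mark phosphorylated YAP and TAZ for degradation, both rose: BTRC, below background on the 3 ip1 arrays, by at least 2.13-fold (1.49-fold likewise) and FBXW11 by 0.69 ± 0.13. CSNK1E, a kinase that acts in this degradation step, had a log2 fold change of -0.60 ± 0.14. With limma's trended and robust variance, 7 of the 12 were called. The stricter filter gave 1 higher and 1 lower, leaving out OM3 array 1 or 3 gave 1 higher, and leaving out ip1 array 1 or 3 gave 1 lower. Second probes disagreed for YWHAZ, another 14-3-3 gene, and CSNK1D, a kinase related to CSNK1E. YWHAZ was at -0.35 by the probe used, which did not pass, and at 0.92 ± 0.16 by the other, which did (limma adjusted p over all probes = 0.00171). CSNK1D was at -0.075 by the probe used and at -0.44 ± 0.13 by the other, which passed (0.0201).

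Vestigial-like proteins compete with YAP and TAZ for TEAD factors, and of the 2 tested 1 was higher and 1 lower. VGLL3 was at 9.97, 9.29 and 10.06 on the OM3 arrays, while no ip1 array rose above background. The difference was at least 14.1-fold, or 6.602-fold without background correction. VGLL3 passed the filter through the OM3 arrays alone, so that its direction was set by it. VGLL4, known as a repressor of TEAD targets, was at 8.88, 9.30 and 9.08 in OM3 and at 9.45, 9.90 and 9.83 in ip1, a log2 fold change of -0.64 ± 0.17. VGLL1 and VGLL2 did not pass the filter. When any 1 OM3 array was left out, VGLL3 was above background on too few arrays to be tested.

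Cell polarity genes that feed into the pathway went both ways, with 3 higher and 5 lower among 15 tested. Over all genes, 31.2% were higher and 25.9% lower. The log2 fold change was -2.89 ± 0.17 for the apical protein gene CRB3 (-1.87 in the authors' value table), -1.20 ± 0.15 for the atypical kinase gene PRKCZ and -1.06 ± 0.14 for the basolateral scaffold gene SCRIB. LIN7C rose by 1.25 ± 0.24, PARD6A by 1.19 ± 0.19 and PARD6B by 0.96 ± 0.26 (above background on 2 of 3 ip1 arrays). For PRKCZ and SCRIB, 1 further probe each did not pass, at -0.33 and -0.37, and the others fell.

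Actin tension acts on YAP and TAZ and on the factor SRF with its MRTF coactivators, so these genes were set beside ANKRD1. Of 17 tested, 9 rose and 4 fell, with a median of 0.48. Without CNN1, which passed the filter through the OM3 arrays alone, 8 of 16 rose and 4 fell. Over all genes, 31.2% rose and 25.9% fell. ACTA2, smooth muscle actin, was at 15.15, 15.04 and 15.16 in OM3 and at 6.96, 6.93 and 6.94 in ip1, a log2 fold change of 8.17 ± 0.12 (limma adjusted p = 3.71e-09), or 7.30 in the authors' value table. The myosin light chain gene MYL9 rose by 5.98 ± 0.22 (4.35 in the authors' value table, above background on 1 of 3 ip1 arrays), and calponin CNN1, below background on the 3 ip1 arrays, was at least 1.32-fold higher. SRF itself was at 11.28, 11.36 and 11.40 in OM3 and at 9.85, 9.79 and 9.90 in ip1, a rise of 2.83-fold (limma adjusted p = 1.23e-05). The tropomyosin gene TPM1 (-1.81 ± 0.13) and the actinin gene ACTN1 (-1.40 ± 0.12) fell.

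Sarcomere partners and relatives of ANKRD1 were mostly dim, since 8 of 14 did not pass the filter, among them ANKRD2, DES, CSRP3 and GATA4. Of the 6 tested, 2 rose and 1 fell, where 31.2% of all genes rose and 25.9% fell. NKX2-5, a heart transcription factor gene, was at 10.42, 10.64 and 10.70 on the OM3 arrays, with no ip1 array above background. It was at least 24.8-fold higher, or 11.1-fold without background correction. NKX2-5 passed the filter through the OM3 arrays alone, so that its direction was set by it. Among the other 5 genes, 1 rose and 1 fell. The relative ANKRD23 rose by 0.55 ± 0.19 (limma adjusted p = 0.0331, above background on 2 of 3 ip1 arrays), a call lost under 8 of the 14 alternatives that gave a value, with adjusted p up to 0.1. Without OM3 array 1 or 3, 1 gene of this list was called. PALLD, which encodes the actin cross-linker palladin, fell, with a log2 fold change of -2.43 ± 0.13. TTN, MYPN and ACTN2, which encode titin and its partners, did not pass, at 0.36, -0.45 and 0.37.

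**Figure D4:**
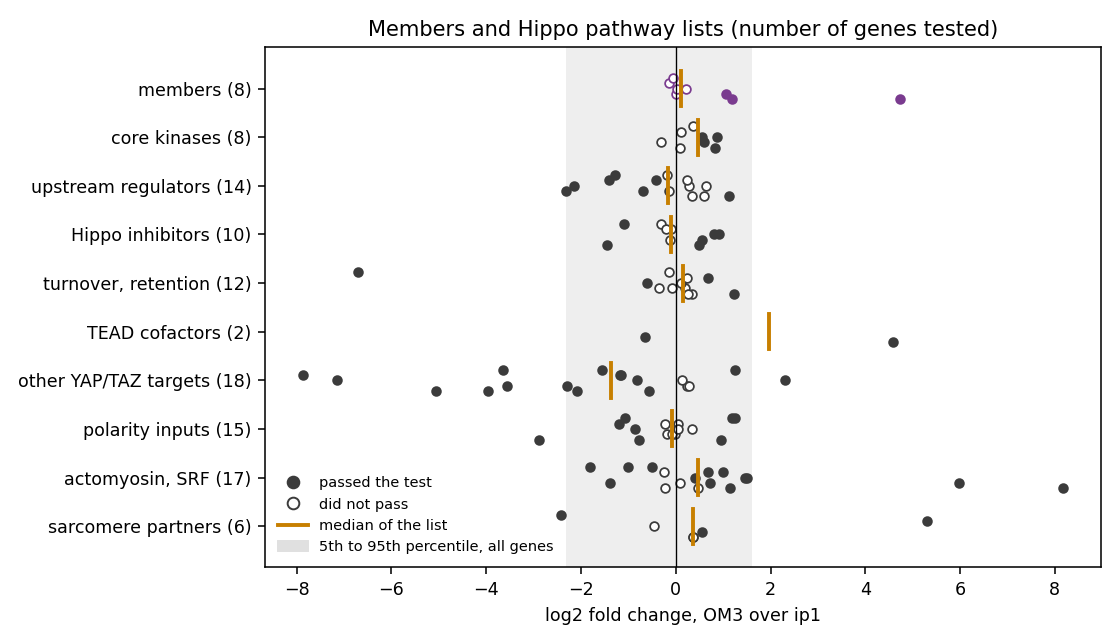
Log2 fold change, OM3 over ip1 (horizontal axis), of each tested gene in the members and in 9 Hippo pathway lists, with the number tested in brackets. Orange bars are list medians, filled points passed the test, and the grey band spans the 5th to 95th percentile of all genes, -2.30 to 1.59. ANKRD1 lies outside the band, and the median of the other YAP and TAZ targets, -1.37, is the lowest of the medians shown. Several lists, that of the targets too, include genes below background on every array of a group, which fixed their direction.

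The genes most like the 3 members that rose were sought by the distance between log2 profiles over the 6 arrays, each centred on its own mean. Nearest to ANKRD1 were GPR65, a proton-sensing receptor (distance 0.374, log2 fold change 4.79), ACAA2, a mitochondrial thiolase (0.385, 4.79), and CRABP2, a retinoic acid binding protein (0.476, 5.05). Nearest to TEAD4 were the Wnt receptor gene FZD9 (0.155), the metalloprotease gene ADAM15 (0.156) and C2orf49 (0.180). Nearest to LATS2 were ZNF417 (0.252), RABIF (0.291) and PLEKHB2 (0.302). With 2 groups of arrays, this measure mostly matches the size of the group difference.

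The 3 calls among the 10 genes held under every one of the 15 processing alternatives run. The log2 fold change of ANKRD1 stayed between 4.30 and 4.86, that of TEAD4 between 0.997 and 1.35 and that of LATS2 between 0.75 and 1.32, and the highest adjusted p was 0.0181, for LATS2. YAP1, WWTR1, TEAD1, TEAD2 and TEAD3 passed under none of the alternatives that gave a value, and their small log2 fold changes took either sign.

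**Figure D5:**
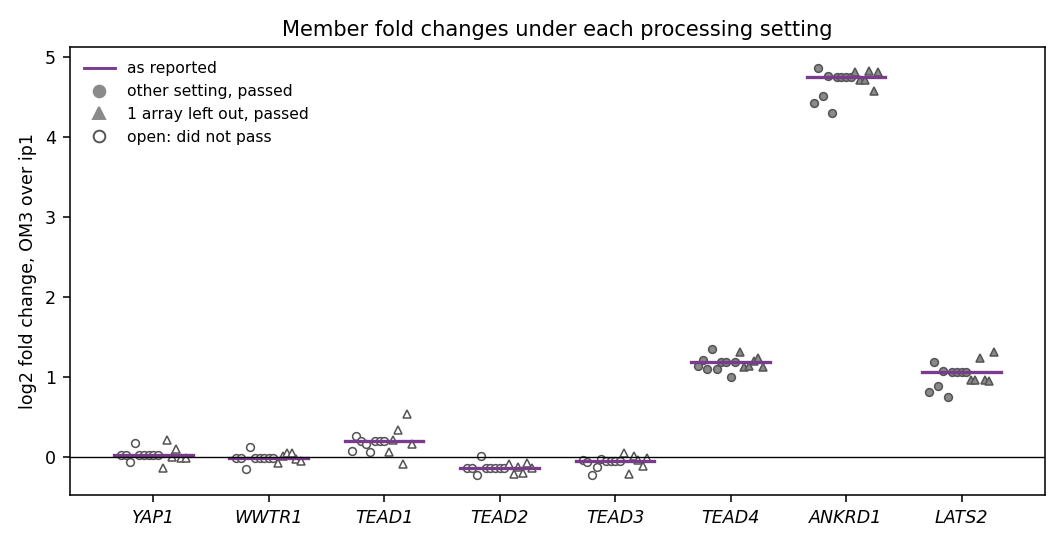
Log2 fold change, OM3 over ip1 (vertical axis), of the 8 tested genes as reported (purple line) and under each alternative, with triangles for fits that leave out 1 array. Filled symbols passed the test. ANKRD1, TEAD4 and LATS2 stay above 0 and passed throughout, while YAP1, WWTR1, TEAD1, TEAD2 and TEAD3 lie between -0.22 and 0.54 and passed under none.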

How the data were processed

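Total RNA was amplified to biotin-labelled cRNA and hybridised to 1-colour Illumina bead arrays, per the labels' protocols. The authors deposited linear probe intensity values for 48799 probes, exported from BeadStudio per the submitters' processing notes (version not given), without detection p-values or control probes. The column names hold p or OM and a number that is not the number in a sample title, so arrays are numbered in column order. Columns with p were read as ip1, the parental cells, and those with OM as OM3. Another 3 columns of per-sample values match no sample described here and were not used. A deposited table of log2 values, the 6 columns of which share 1 distribution, served as an alternative. Each of these columns had a rank correlation of 1, after rounding, with an array read as its group.

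In R 4.3.3, each array was corrected with limma 3.58.1 (normexp over every signal, offset 16), quantile-normalized and put on the log2 scale. Background was the mode of an array's log2 signals (kernel bandwidth 0.02), its SD came from values under the mode, and a probe was above background at a one-sided probability of 0.05. The median intensity of an array was 131 to 142, with 38.1% to 42.1% of its probes above background. Probes above background on at least 3 arrays were kept, 19002 in all. The platform annotation named 1 gene for 28094 probes, several for 13 and none for 20692. Symbols were updated through RefSeq (GRCh38.p14), except for 39 probes without a match. The kept probe with the highest mean stood for each gene. OM3 was compared with ip1 by lmFit and eBayes, two-sided, and the code was tested on simulated data. Precision is limited by how few arrays there are (median standard error 0.160 on the log2 scale).

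All members are named, and up to 6 changed genes with the largest fold change of each pathway list. The members and lists were chosen with earlier results of these data known.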

Additional observations from a re-analysis of the deposited data

How the results depend on the processing

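The alternatives were no background correction, normexp with the background taken from the mode, cyclic loess, median centring, the authors' value table, a stricter filter (all 6 arrays), no filter, the mean of a gene's probes, trended and robust variance, and each array left out. The count of changed genes lay between 5423 and 7016 (6700 as reported), and 3 of the 10 genes were called each time. Cyclic loess moved the median log2 fold change of all genes to -0.02. Values that did not pass changed sign: YAP1 to -0.0567 with cyclic loess and, with median centring, WWTR1 to 0.13, TEAD2 to 0.016 and TEAD2 minus TEAD3 to 0.14. With 1 array left out, YAP1 ranged from -0.13 to 0.22, WWTR1 from -0.0762 to 0.0581, TEAD1 from -0.089 to 0.54, TEAD3 from -0.21 to 0.0512, YAP1 minus WWTR1 from -0.0558 to 0.20, TEAD1 minus TEAD3 from -0.0589 to 0.65 and TEAD2 minus TEAD3 from -0.17 to 0.0339. The stricter filter, which tests fewer genes, gave 2 changed core kinases and scaffolds, 2 genes of turnover and retention, 1 TEAD cofactor and 7 other targets, and the trended variance 7 genes of turnover and retention, for which the cause was not tested. Leaving out 1 array gave 2 to 4 core kinases (2 without OM3 array 1 or 3), 1 to 2 cofactors (1 without any OM3 array) and 1 to 4 sarcomere partners (1 without OM3 array 1 or 3), where the filter too was redone. No paired analysis was possible because the groups share no replicate numbers in the labels. Dim probes limit TEAD1, AMOTL1 and AMOTL2.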
